A study of Danio rerio with 6 samples.

Results

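*gata1a*, *tal1*, *lmo2*, *etv2* and *fli1a* are 5 transcription regulator genes of blood and vascular progenitors, and they were followed here in *pax8*:DsRed-positive cells sorted from Dlx3b/4b-depleted and wild-type zebrafish embryos. The members were taken by their Ensembl identifiers together with the chromosome expected for each. All 5 rows lay on the expected chromosome and were kept, out of 32266 genes listed. A table of gene names carried all 5 identifiers, with *etv2* under its older name *etsrp* and *tal1*, *fli1a* and *lmo2* under the symbols TAL1, FLI1 and LMO2.

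*dlx3b/4b* morphants, injected at the beginning of development with antisense morpholinos against *dlx3b* and *dlx4b* (3 samples), were compared with wild-type embryos of the AB line (3 samples). Both groups carried the *pax8*:DsRed gene trap in the heterozygous state, were raised to late stages of the otic-epibranchial progenitor domain (OEPD), and were dissociated and sorted for live, single, DsRed-positive cells. These stages span a range of somite numbers, and whether the groups matched within it was not tested. The methods do not mention that wild-type embryos were injected with a control, so that loss of Dlx3b/4b and the injection itself cannot be told apart. Morpholinos act on the RNA of their target, in many cases without lowering it, and the transcript level of *dlx3b* does not measure the depletion. *dlx3b* had 51.2 to 180 CPM (normalized counts in each 1000000 of a library) in morphant and 30.2 to 144 CPM in wild-type samples. The reporter marks the OEPD, from which the inner ear arises, and the nephric anlagen, the early kidney primordia.

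Blood and vessels of the zebrafish embryo arise from the lateral plate mesoderm, in bilateral stripes that lie next to the intermediate mesoderm, the source of the kidney. Tal1, a basic helix-loop-helix factor, and Lmo2, a LIM-domain protein that bridges DNA-binding factors, form a complex with GATA factors and act early in progenitors of both lineages. Gata1a is the main regulator of red blood cell formation. Etv2 and Fli1a belong to the ETS family, and Etv2 initiates the vascular programme, whereas Fli1a marks vascular precursors and, later, also neural crest derivatives.

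The members lie on 4 chromosomes, with coordinates as the count table gives them. The methods name GRCz11 as the build and the submitters' processing notes name GRCz10, so that the build of these coordinates is not settled. *gata1a* (ENSDARG00000013477) occupies chromosome 11, 25174298 to 25181240, on the reverse strand, with 6 exons after merging. *tal1* (ENSDARG00000019930) lies on chromosome 22, 16509305 to 16519060, on the forward strand, with 4 exons. *etv2* (ENSDARG00000053868) lies on chromosome 16, 42058781 to 42063826, on the reverse strand, with 8 exons. *lmo2* (ENSDARG00000095019), at 38307869 to 38315657 with 3 exons, and *fli1a* (ENSDARG00000054632), at 48429318 to 48493178 with 11 exons, are both on the forward strand of chromosome 18 and lie 10.1 Mb apart. Spans ranged from 5046 bp for *etv2* to 63861 bp for *fli1a*, and the length of merged exons from 1453 bp for *etv2* to 3203 bp for *fli1a*. No exon of a member overlaps an exon of another gene.

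Gene counts summed to 23846555 to 26250129 in morphant and 27373965 to 28480101 in wild-type samples. The members had 3264 to 43115 counts per sample and all 5 passed the filter on low counts, which left 17526 genes. Counting error alone was at most 1.75% of a member's value, in *gata1a*, and the spread between replicates was larger in every case, with coefficients of variation of 3.72% to 19.9% in morphant and 9.7% to 18.9% in wild-type samples. Wild-type replicate 2 stood apart from the others of its group in some genes, otic and other. It had 214 CPM of *eya1* against 66.4 and 83.3 CPM in the other wild-type samples. For the epidermal gene *krt4* it had 898 CPM against 333 and 474 CPM. In *pax8* it differed less, with 304 CPM against 249 and 227 CPM. Among wild-type samples, replicate 2 was also the lowest for each of the 5 members. Morphant replicate 3 likewise stood apart in its group in some genes, otic and other. It had 180 CPM of *dlx3b* against 51.2 and 78.7 CPM in the other morphant samples, and 26.3 CPM of *foxi1* against 4.49 and 12.4 CPM. For the forebrain gene *foxg1a* it had 8.02 CPM against 1.48 and 2.98 CPM. In *pax8* it did not stand apart, with 322 CPM against 415 and 265 CPM. Both libraries stood apart in some of the same genes. Wild-type replicate 2 had 144 CPM of *dlx3b* against 48 and 30.2 CPM, and 20 CPM of *foxi1* against 8.55 and 4.98 CPM. For *foxg1a* it had 6.24 CPM against 2.49 and 3.02 CPM. Morphant replicate 3 was highest of its group for *eya1*, with 75.4 CPM against 33.9 and 49.3 CPM. The replicate block does not pair these libraries.

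Between the groups, the members went different ways. In Dlx3b/4b-depleted samples *gata1a* was lower, at 46.8% of the wild-type level, *lmo2* was lower, at 75.1%, and *fli1a* was higher, at 137%. *tal1* was at 76.7% and *etv2* at 97.5%, and neither passed the test. Thus 3 of the 5 members were called at an adjusted p below 0.1, 2 lower and 1 higher, whereas 10.9% of all tested genes were called, 6.05% lower and 4.85% higher. The members were chosen with earlier results of these data known. The median log2 fold change was −0.38 over the 5 members and −0.01 over all tested genes. The groups did not overlap for 4 of the 5 members, against 31.5% of all tested genes. In 3 of these 4 every morphant sample was lower, against 16.4% of all tested genes, and in 1 every morphant sample was higher, against 15.1%. RNA of a sorted population is measured here, in which fewer cells of a type and less RNA per cell cannot be told apart.

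**Figure D1:**
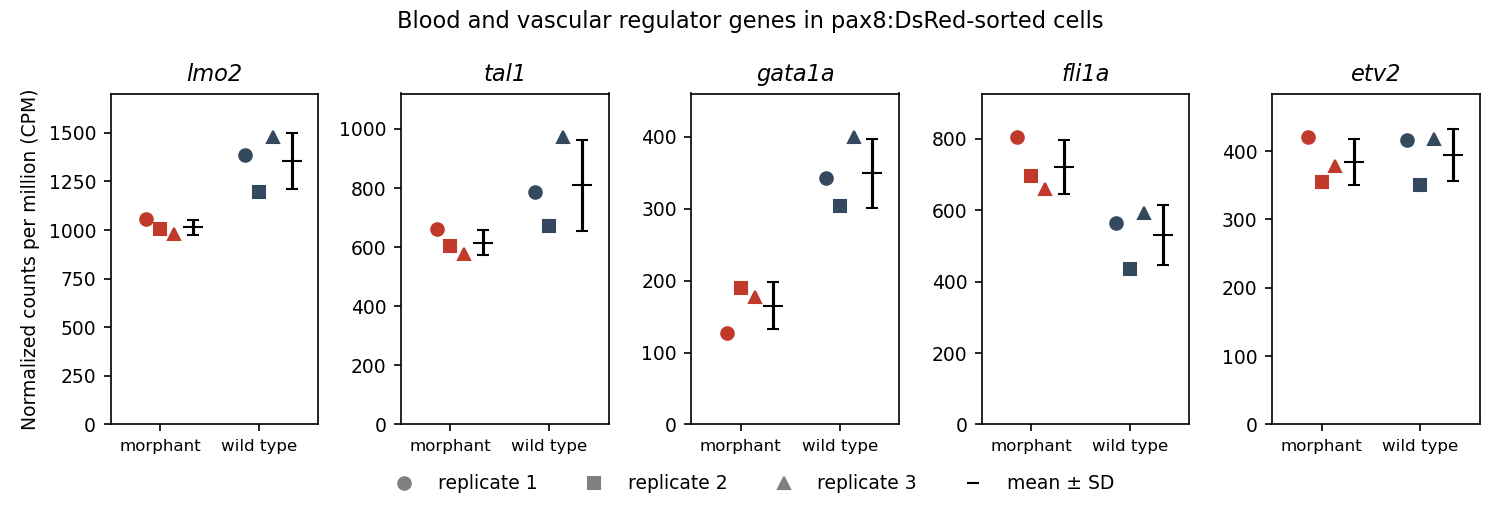
Normalized CPM of the 5 genes in each sample (vertical axes start at 0 and differ between panels), with morphant samples in red on the left and wild-type samples in dark blue on the right. Symbols give the replicate number and the black mark with bars gives the mean ± SD (n = 3). Morphant samples are below wild-type samples for *lmo2*, *tal1* and *gata1a*, above them for *fli1a*, and mixed with them for *etv2*.

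*gata1a*, the erythroid regulator, showed the largest difference of the 5 members. It had 127, 189 and 177 CPM in morphant replicates 1, 2 and 3, against 343, 304 and 400 CPM in wild-type replicates 1, 2 and 3. The highest morphant sample was thus far below the lowest wild-type sample, and morphant replicate 1 was the lowest of all. The means were 165 ± 32.8 CPM in morphant and 349 ± 48.4 CPM in wild-type samples (SD, n = 3 each). The log2 fold change was −1.09 (standard error 0.14, 95% interval −1.41 to −0.78), with an adjusted p of 0.00542 (edgeR's quasi-likelihood test, Benjamini-Hochberg adjustment over all tested genes). *gata1a* was called under all 22 alternatives, with log2 fold changes of −1.30 to −0.93 and adjusted p up to 0.0907.

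*lmo2*, which encodes the bridging protein of the Tal1 complex, was the most abundant member. It had 1055, 1007 and 981 CPM in morphant replicates 1, 2 and 3, against 1388, 1196 and 1480 CPM in wild-type replicates 1, 2 and 3. The morphant samples were close to each other, and all were below the lowest wild-type sample, replicate 2. The means were 1014 ± 37.7 CPM in morphant and 1355 ± 145 CPM in wild-type samples (SD, n = 3 each). On the log2 scale the difference was −0.41 (standard error 0.11, 95% interval −0.65 to −0.17, adjusted p = 0.058, edgeR). The direction held in every alternative, whereas the call was lost in 8 of the 15 fits that left out samples. With the replicate block these were the fits without same-numbered replicates 1 (adjusted p = 0.451) or 3 (0.111), without morphant replicate 1 (0.446) or 3 (0.122) and without wild-type replicate 1 (0.451). With no block they were those without morphant replicate 2 (0.111) or 3 (0.11) or wild-type replicate 1 (0.113). With the block, leaving out 1 sample also takes its same-numbered partner out of the comparison between the groups. Blocked fits that leave out 1 or both samples of a replicate number thus rest on the same pairs and are near repeats.

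*tal1*, the partner of Lmo2 in that complex, had 662, 604 and 578 CPM in morphant replicates 1, 2 and 3, against 787, 670 and 974 CPM in wild-type replicates 1, 2 and 3. No morphant sample reached the wild-type range, although morphant replicate 1 and wild-type replicate 2 were close to each other. The means were 615 ± 43 CPM in morphant and 810 ± 154 CPM in wild-type samples (SD, n = 3 each). The log2 fold change of −0.38 (standard error 0.13, 95% interval −0.67 to −0.09) was close in size to that of *lmo2* but did not pass the threshold (adjusted p = 0.123, edgeR). Without the replicate block it was −0.40 and passed (adjusted p = 0.0945, edgeR). With the block it also passed without replicate 2 of both groups (adjusted p = 0.0697), of the morphant samples (0.0557) or of the wild-type samples (0.0689), and with no block without wild-type replicate 2 (0.017). By contrast, the log2 fold change of *tal1* was −0.17 without replicate 3 of both groups (adjusted p = 0.361), −0.19 without morphant replicate 3 (0.365) and −0.20 without wild-type replicate 3 (0.309), all with the block. As for *lmo2*, the blocked fits for the same replicate number are near repeats of each other.

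*fli1a* was the member with higher values in Dlx3b/4b-depleted samples. It had 806, 695 and 660 CPM in morphant replicates 1, 2 and 3, against 564, 434 and 593 CPM in wild-type replicates 1, 2 and 3. Every morphant sample was above every wild-type sample. The means were 720 ± 75.9 CPM in morphant and 530 ± 84.7 CPM in wild-type samples (SD, n = 3 each). edgeR gave a log2 fold change of 0.45 (standard error 0.12, 95% interval 0.18 to 0.72, adjusted p = 0.0625). The direction held in every alternative, and the call was lost in 9 of the 15 fits that left out samples. With the block these were the fits without same-numbered replicates 1 (adjusted p = 0.463) or 2 (0.181), without morphant replicate 1 (0.464) or 2 (0.17) and without wild-type replicate 1 (0.463) or 2 (0.181). With no block they were those without morphant replicate 1 (0.207) or 2 (0.15) or wild-type replicate 1 (0.123). The blocked fits for the same replicate number are again near repeats, not separate tests.

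*etv2*, the other ETS gene and the early vascular regulator, had 421, 354 and 378 CPM in morphant replicates 1, 2 and 3, against 416, 350 and 417 CPM in wild-type replicates 1, 2 and 3. The highest and the lowest samples of both groups were nearly level, so that the groups overlapped over most of their range. The means were 384 ± 33.7 CPM in morphant and 394 ± 38.3 CPM in wild-type samples (SD, n = 3 each). edgeR gave a log2 fold change of −0.04 (standard error 0.10) with an adjusted p of 0.861, and the 95% interval of −0.25 to 0.18 corresponds to 0.84-fold to 1.13-fold. A change of the size found for *gata1a*, 0.468-fold, lies outside this interval.

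**Figure D2:**
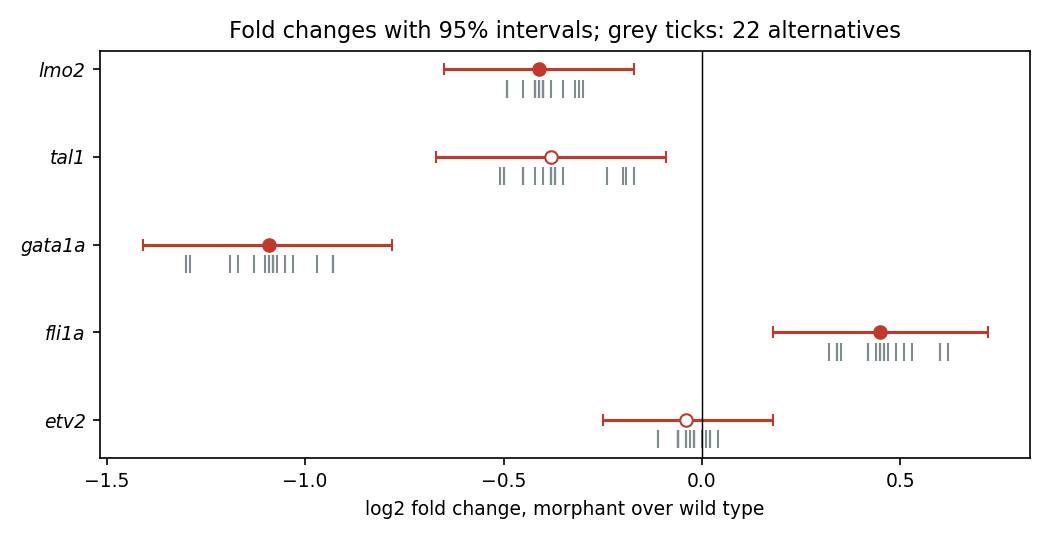
Log2 fold change of each gene, morphant over wild type (horizontal axis), from edgeR with the replicate block. Filled circles passed the threshold and open circles did not, bars are 95% intervals, and grey ticks mark the values under the 22 alternatives. All values of *gata1a*, *lmo2* and *tal1* are below 0 and all values of *fli1a* are above 0, whereas those of *etv2* lie on both sides.

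To compare genes with each other, counts were divided by the length of merged exons (RPKM, which scales a count for library size and exon length). On this scale all 5 members ranked near the top of the tested genes. In wild-type samples they were at percentiles 97.8 to 99.4, and in morphant samples at 94.6 for *gata1a* and 98.3 to 99.3 for the others, against a median of 4.17 RPKM in morphant and 4.31 RPKM in wild-type samples over all tested genes. *pax8*, the gene behind the reporter, had means of 140 RPKM in morphant and 109 RPKM in wild-type samples. In wild-type samples the mean RPKM of each member was thus above that of *pax8*, although the sample labels name only OEPD and nephric anlagen as the sorted cell types. In morphant samples *gata1a* was below *pax8* and the other 4 members were above it. Whether the same cells carry these transcripts and those of *pax8* was not tested.

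*lmo2* was highest of the 5 in every sample, with mean levels of 562 ± 20.9 RPKM in morphant and 750 ± 80.2 RPKM in wild-type samples (SD, n = 3 each). In morphant samples *etv2* followed at 264 ± 23.2 RPKM, then *tal1* at 233 ± 16.3 RPKM and *fli1a* at 225 ± 23.7 RPKM, and these neighbours overlapped. *gata1a* was last at 78.6 ± 15.6 RPKM, and its highest morphant value of 90.4 RPKM was below the lowest of *fli1a*, 206 RPKM. In wild-type samples *tal1* at 307 ± 58.1 RPKM and *etv2* at 271 ± 26.3 RPKM overlapped, as did *gata1a* at 166 ± 23.1 RPKM and *fli1a* at 166 ± 26.5 RPKM. The level of *fli1a* was 4.13, 2.4 and 2.44 times that of *gata1a* in morphant replicates 1, 2 and 3, against 1.08, 0.936 and 0.971 times in wild-type replicates 1, 2 and 3. *gata1a* and *fli1a* were therefore at nearly equal levels in each wild-type sample and well apart in each morphant sample. This did not hold for *etv2*, the other vascular regulator, which was above *gata1a* in every sample of both groups.

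**Figure D3:**
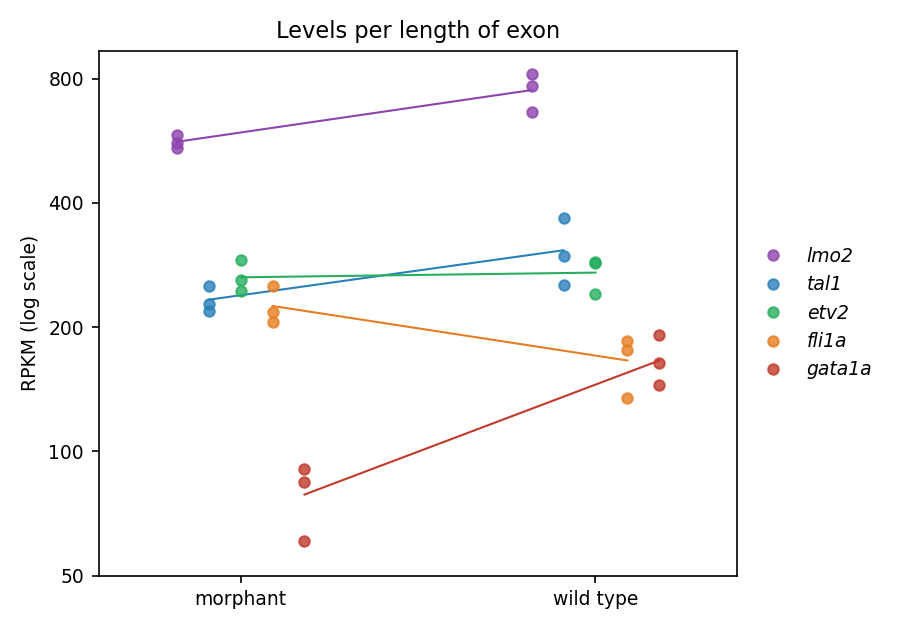
RPKM on a log axis for the 5 genes, with morphant samples on the left and wild-type samples on the right. Points are samples and lines join the group means. *lmo2* is on top in both groups, and *gata1a* and *fli1a* lie together in wild-type samples but apart in morphant samples.

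Ratios of counts within a library do not depend on how libraries were scaled, and were therefore formed for all 10 pairs of members. They are not corrected for length. For each 100 counts of *etv2*, *gata1a* had 30.3, 53.4 and 46.9 counts in morphant replicates 1, 2 and 3, against 82.4, 86.7 and 95.9 counts in wild-type replicates 1, 2 and 3. *lmo2* had 251, 284 and 260 counts for each 100 of *etv2* in morphant samples, against 334, 341 and 355 counts in wild-type samples. Relative to *etv2*, both genes were thus lower in every morphant library. *fli1a* had 191, 196 and 175 counts for each 100 of *etv2* in morphant samples, against 136, 124 and 142 counts in wild-type samples. *tal1* had 157, 170 and 153 counts in morphant samples, against 189, 191 and 234 counts in wild-type samples.

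The ratio of *tal1* to *lmo2*, the 2 partners of the complex, was the one whose groups overlapped. *tal1* had 62.8, 59.9 and 59.0 counts for each 100 counts of *lmo2* in morphant replicates 1, 2 and 3, against 56.7, 56.0 and 65.8 counts in wild-type replicates 1, 2 and 3 (exact permutation test, two-sided, p = 0.7). The other 9 ratios did not overlap between the groups (exact permutation test, two-sided, p = 0.1 each, the smallest p that 3 against 3 samples allow, and 0.111 after Benjamini-Hochberg adjustment over the 10 ratios). All 10 ratios come from the same 5 genes and depend on each other, so that they are not separate results. The share of non-overlapping ratios among other pairs of genes was not computed. The ratio of *gata1a* to *fli1a*, the called members of opposite direction that differed most in fold change, had a mean per 100 counts of *fli1a* of 23.3 ± 6.48 in morphant and 66 ± 4.75 in wild-type samples (SD, n = 3 each). No scaling of the libraries can bring the 2 groups together for these 9 ratios, since it cancels within a library.

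**Figure D4:**
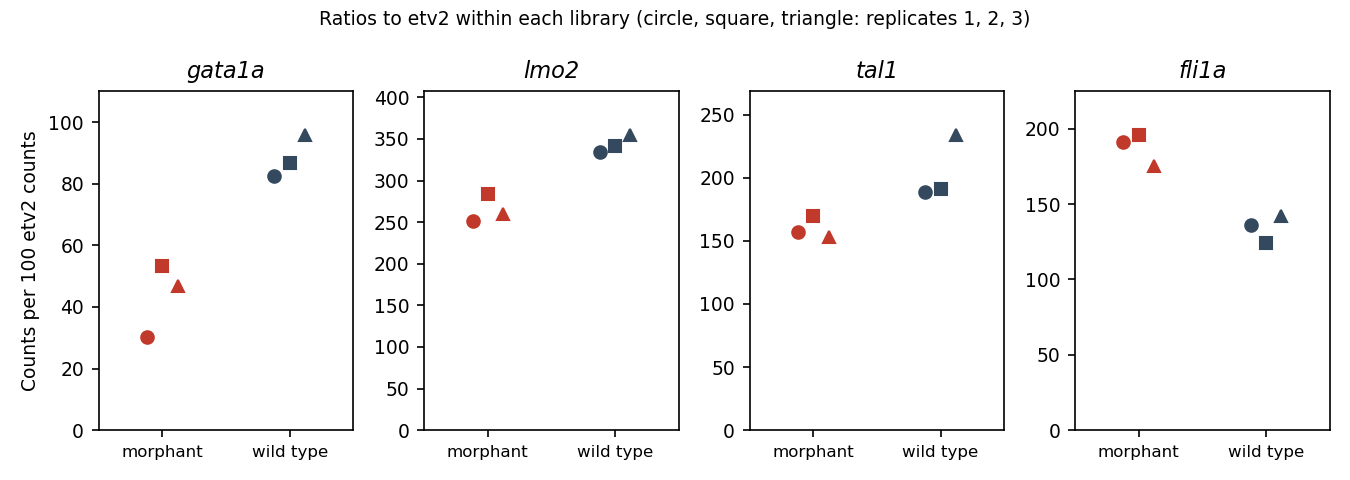
Raw counts of *gata1a*, *lmo2*, *tal1* and *fli1a* for each 100 counts of *etv2* in the same library (vertical axes start at 0), with morphant samples in red on the left and wild-type samples in dark blue on the right. Morphant libraries are lower for *gata1a*, *lmo2* and *tal1* and higher for *fli1a*, with no overlap in any panel.

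Other genes of the blood and vascular programme were examined in lists of transcription factors, erythroid genes, myeloid genes and endothelial genes, none of which holds a member. Of 61 genes listed, 51 were paired with a counted identifier and 48 passed the filter. In morphant samples 24 of the 48 were lower, 0 were higher and 24 did not pass edgeR's test. Of all tested genes 10.9% were called, 6.05% lower and 4.85% higher. The lists were chosen with earlier results of these data known, so that their counts are a description and not independent evidence. At an unadjusted p below 0.05, 3 were higher, and the 3 that DESeq2 with the block called higher were *tcf3a*, *tcf3b* and *ets1*. Fold changes of 42 of the 48 were negative, and every morphant sample was below every wild-type sample in 24 of the 48, against 16.4% of all tested genes. These are not quite the same genes as those called lower. Not all of them were called, and *alas2* and *she* were called with overlapping groups. Every morphant sample was above every wild-type sample in 2, *tcf3b* and *ets1*, against 15.1% of all tested genes. *gata1a* and *lmo2* thus shared their direction with the called genes of both lineages, and *fli1a* did not.

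Of the 14 tested blood transcription factors, 8 were lower in morphant samples, with a median log2 fold change of −0.72 over the list. *myb*, a factor of blood stem and progenitor cells, had 21.2, 49.4 and 35.4 CPM in morphant samples, against 74.5, 96.1 and 103 CPM in wild-type samples (log2 fold change −1.44, adjusted p = 0.00324, edgeR). *spi1b*, the zebrafish gene of the myeloid factor Pu.1, had 3.4, 9.98 and 6.16 CPM in morphant samples, against 11.4, 18 and 21 CPM in wild-type samples (log2 fold change −1.44, adjusted p = 0.0107, edgeR). An exon of each of these genes overlaps another gene, and the counting is not stated to use strand. The others called lower were *klf17*, *klf3*, *gfi1aa*, *cbfb*, *cebpa* and *hhex*, with log2 fold changes of −0.61 to −0.99. *gata2a*, a GATA factor of early progenitors and vessels, had 215, 201 and 223 CPM in morphant samples, against 203, 175 and 202 CPM in wild-type samples, and the groups overlapped (adjusted p = 0.406, edgeR). *tcf3a* and *tcf3b*, which encode E proteins that pair with Tal1, had log2 fold changes of 0.60 and 0.32 (adjusted p = 0.108 each, edgeR) and passed without the replicate block (adjusted p = 0.098 and 0.0747).

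Of the 9 tested erythroid genes, 4 were lower in morphant samples, 3 globin genes and 1 gene of heme synthesis. The embryonic globin gene *hbae3* had 10.2, 23.2 and 18.7 CPM in morphant samples, against 36.5, 53.7 and 58 CPM in wild-type samples (log2 fold change −1.56, adjusted p = 0.00209, edgeR). *hbbe3* and *hbae1.1*, also globin genes, had log2 fold changes of −1.70 and −0.93. Exons of *hbae1.1* and *alas2* overlap other genes, and globin genes are close copies of each other, so that unique reads may not separate them fully. *alas2*, which encodes the first enzyme of heme synthesis in red blood cells, had a log2 fold change of −1.15 with overlapping groups, and was not called without the replicate block (adjusted p = 0.201, edgeR). As with *gata1a*, morphant replicate 1 was the lowest library for each of these 4 genes. The myeloid genes were at low levels, and of 3 tested 1 was lower, *lcp1*, the leukocyte gene of L-plastin, with 0.273 to 0.549 CPM in morphant and 1.57 to 4.22 CPM in wild-type samples (log2 fold change −2.72, adjusted p = 0.00821, edgeR). The morphant values of *lcp1* rest on 7, 14 and 13 counts. With at least 10 counts required in every sample, 0 myeloid genes were called lower.

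Of the 22 tested endothelial genes, 11 were lower in morphant samples, and the median log2 fold change of the list was −0.72. *erg*, an ETS gene related to *fli1a*, had 3.12, 4.52 and 2.66 CPM in morphant samples, against 12.8, 8.07 and 10.8 CPM in wild-type samples (log2 fold change −1.62, adjusted p = 0.0163, edgeR). *flt4*, a receptor for vascular endothelial growth factors, had 22.4, 34.4 and 29.9 CPM in morphant samples, against 74.2, 51.7 and 82.4 CPM in wild-type samples (log2 fold change −1.26, adjusted p = 0.0113, edgeR). *erg* and *flt4* were thus lower in every morphant sample, while *fli1a* was higher in every morphant sample. *egfl7*, *tek*, *kdr*, *sox7*, *sox18*, *she*, *aplnrb*, *clec14a* and *esama* were also called lower, with log2 fold changes of −0.38 to −1.23. *kdrl*, the receptor gene often used to mark zebrafish vessels, and *cdh5*, the vascular cadherin gene, had overlapping groups, with log2 fold changes of −0.47 and −0.38 (adjusted p = 0.19 and 0.616, edgeR). *ets1*, another ETS gene, had 64.7, 61.6 and 57.2 CPM in morphant samples, against 47.6, 33.2 and 55.2 CPM in wild-type samples, and did not pass the test (log2 fold change 0.46, adjusted p = 0.125, edgeR).

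**Figure D5:**
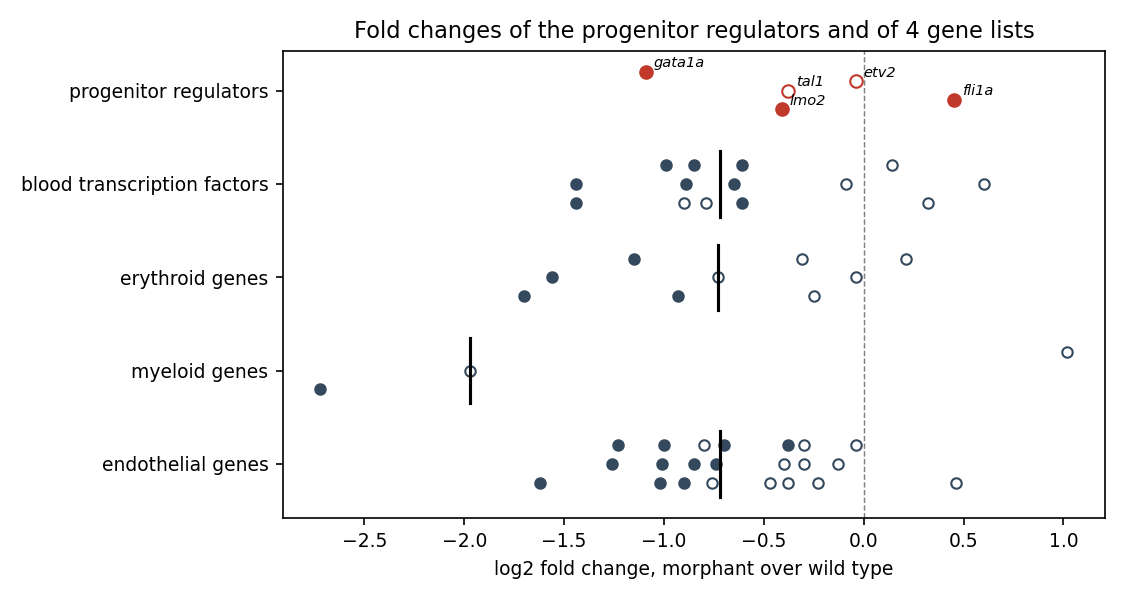
Log2 fold change, morphant over wild type (horizontal axis), of the 5 regulators in red and of the tested genes of 4 lists in dark blue. Filled circles passed the threshold, open circles did not, black bars are list medians, and vertical offsets within a row only separate points. Every filled circle except that of *fli1a* is left of 0.

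The counts of called list genes depended on the threshold and on the samples used. At an adjusted p below 0.05, 7 of the blood transcription factors, 3 erythroid genes, 1 myeloid gene and 5 endothelial genes were called lower. Without replicate 1 of both groups, 1 of the blood transcription factors, 2 erythroid genes, 1 myeloid gene and 1 endothelial gene were called lower. With the block, leaving out only morphant or only wild-type replicate 1 also takes its partner out of the comparison between the groups. The numbers were then 3, 2, 1 and 2 without morphant replicate 1, and 3, 2, 1 and 1 without wild-type replicate 1. With no block, 2 erythroid genes were called lower without morphant replicate 3, wild-type replicate 1 or wild-type replicate 3, and the endothelial genes called lower numbered 5 without morphant replicate 1 and 7 without morphant replicate 3 or wild-type replicate 1. Without wild-type replicate 2, the library that stood apart in *eya1* and *krt4*, the numbers with the block were 9, 5, 1 and 14. The log2 fold changes of *gata1a*, *lmo2*, *tal1*, *fli1a* and *etv2* were −1.30, −0.49, −0.50, 0.34 and −0.06. Morphant replicate 2 had no part in this comparison either, so that these values belong to the pair. Without morphant replicate 3, which stood apart in *dlx3b* and *foxi1*, the numbers called lower with the block were 9, 4, 1 and 15. In that fit 2 of the blood transcription factors and 1 endothelial gene were called higher. Wild-type replicate 3 likewise had no part in this comparison. The log2 fold changes of the 5 members in the same order were then −1.05, −0.31, −0.19, 0.60 and 0.02, and 4144 genes were called in all, against 1911 with all samples.

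Markers of the other cell types that the sort could hold were set beside these values. Of 11 OEPD and otic markers listed, *pax2a*, *sox9a*, *sox9b* and *six1b* could not be paired with a single identifier and were not analysed. The paper reports *sox9b* as lower by RNA sequencing and in situ hybridization. It reports the same for further OEPD genes outside this list, among them *atoh1b*, *ptchd3a*, *stc2a*, *irx4b* and *fam20cb*. Of the 7 tested markers of the list, 0 were called by edgeR and 0 by DESeq2, and 1, *eya1*, was lower at an unadjusted p below 0.05. These counts do not speak for the OEPD genes outside the list. The 7 tested markers include the morpholino targets *dlx3b* and *dlx4b*. Summed levels were 511 to 726 CPM in morphant and 412 to 814 CPM in wild-type samples. The largest part was *pax8*, also in the nephric list, with means of 334 CPM in morphant and 260 CPM in wild-type samples. Of 5 nephric and intermediate mesoderm markers, *osr1* was higher and *cdh17* lower, with summed levels of 706 to 912 CPM in morphant and 640 to 728 CPM in wild-type samples. Paraxial mesoderm and muscle markers summed to 323 to 393 CPM in morphant and 155 to 238 CPM in wild-type samples, with 2 of 7 tested genes called higher, *aldh1a2* and *tbx16*. These 2 made up most of the sums, with means of 132 and 162 CPM in morphant and 41.8 and 108 CPM in wild-type samples. The other 5 tested genes of this list had overlapping groups and were not called. For *aldh1a2*, the paper saw no striking difference by in situ hybridization in *dlx3b/4b* mutants. It ascribes this presumably to a moderate rise that the method does not resolve. Of 2 tested neural crest markers, where *fli1a* is also active later, 0 were called by edgeR or DESeq2 and 1, *sox10*, was lower at an unadjusted p below 0.05. The summed level of these markers was 7.34 to 23.4 CPM in morphant and 17.2 to 59.2 CPM in wild-type samples. On average its larger part was *sox10*, with means of 11.6 CPM in morphant and 27.5 CPM in wild-type samples. Wild-type replicate 2 alone had 56.2 CPM of *sox10*. The same library was the lowest of its group for *crestin*, the other tested marker, with 2.95 CPM against 5.27 and 4.7 CPM. Which cells carry *sox10* here was not tested. *foxd3* was at 0 counts in all samples. An exon of *foxd3* overlaps another gene, so that 0 counts may not mean its absence. Of 3 epidermal markers, *cdh1*, the epithelial cadherin gene, was lower, with 76.6, 77.9 and 82.8 CPM in morphant samples, against 146, 225 and 129 CPM in wild-type samples (log2 fold change −1.04, adjusted p = 0.00999, edgeR). Every morphant sample was thus below every wild-type sample in *cdh1*, as in *gata1a*, whereas the summed epidermal level of 468 to 782 CPM in morphant and 494 to 1147 CPM in wild-type samples overlapped. Notochord markers summed to 88.8 to 111 CPM in morphant and 69 to 84.3 CPM in wild-type samples, and *tbxta*, the main contributor, did not pass the test (log2 fold change 0.34, adjusted p = 0.128, edgeR), although every morphant sample was above every wild-type sample. Forebrain markers summed to 6.52 to 32.6 CPM in morphant and 9.78 to 24.4 CPM in wild-type samples, and endoderm markers to 1.45 to 2.82 CPM in morphant and 1.06 to 2.43 CPM in wild-type samples. Neither of these lists held a called gene among its 4 and 1 tested genes by edgeR or DESeq2, nor one at an unadjusted p below 0.05. The part of the mesodermal, epidermal and notochord markers in the values of the 5 regulators was not tested.

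The genes whose pattern over the 6 samples was most like the mean of the standardized members were *tdh* (Pearson's r = 0.997), *TYW1B* (0.995), *NFX1* (0.994), *ARHGEF28* (0.993) and *EPRS1* (0.991), among 11392 genes with a mean count of at least 100. These 5 genes were picked as the highest of 11392 correlations over 6 samples, so that their r is a description only. None of the 5 passed the test between the groups, with log2 fold changes of −0.19 to −0.03. With members that moved in opposite directions, their mean pattern did not separate the groups either, at −0.53 to −0.01 in morphant and −0.48 to 0.98 in wild-type samples. Among the members, *lmo2* and *tal1* had the highest correlation over the 6 samples (Pearson's r = 0.95) and *gata1a* and *fli1a* the lowest (−0.75), which is given as a description, since the samples fall into 2 groups and share the same libraries.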

How the data were processed

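RNA of sorted *pax8*:DsRed-positive cells was sequenced from 3 morphant and 3 wild-type samples. The authors deposited raw read counts per Ensembl gene, made, per the methods, with GSNAP on GRCz11 and featureCounts from uniquely aligned reads and without normalization. The submitters' processing notes instead name GRCz10 and featureCounts 1.5.2, and the library protocol of the labels (strand-specific) differs from that of the methods (Smart-seq2). Whether counting used strand is not stated. The exon length of the deposited table served for RPKM. The 92 rows that name no gene had 0 counts and were left out.

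Counts were analysed with edgeR 4.0.16 in R 4.3.3 (filterByExpr, TMM, quasi-likelihood test, replicate number as a block, Benjamini-Hochberg adjustment, threshold 0.1). The methods modelled clutch as a factor but do not tie clutches to replicate numbers, so that the block stands in for that factor and may not match it. Standard errors are the size of the log2 fold change divided by the square root of F. CPM and RPKM use TMM-scaled library sizes over tested genes. At these depths, 3 counts correspond to 0.105 to 0.126 CPM, for counting error only. For correlations, CPM were put on the log2 scale (prior count 2). The code was tested on simulated data. The labels name biological groups but not clutches. In the main fit, p-values rest on the spread of these samples left after the replicate block, with information shared between genes. They do not measure the spread given by the SDs. Symbols came from a table that named 81.9% of the listed identifiers, with mostly human-style symbols. *npas4l* and *hbbe1.1* were not analysed here. The 5 members and the lists were chosen with earlier results of these data known. Named genes are the members, called list genes, *kdrl*, *cdh5*, *spi1b* and *gata2a*, and the 5 genes most alike. *ets1*, *tcf3a*, *tcf3b*, *eya1*, *foxi1*, *foxg1a*, *krt4*, *cdh1*, *tbxta*, *sox10* and *crestin* were named after their values were seen. Alternatives were the model with no block, DESeq2 1.42.0 (block kept or dropped), RLE factors, no filter, at least 10 counts in every sample, a threshold of 0.05, and leaving out samples. Figures were drawn with matplotlib 3.10.9.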

Additional observations from a re-analysis of the deposited data

How the results depend on the processing

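*gata1a* kept its direction and its call under all 22 alternatives, and *lmo2*, *tal1* and *fli1a* kept their direction. *tal1*, not called at first, passed without the replicate block (log2 fold change −0.40), with DESeq2 with the block (−0.37) and without it (−0.38), and with no filter (−0.37), so that 4 members were called there. At a threshold of 0.05, *fli1a* (0.45) and *lmo2* (−0.41) were not called, *gata1a* was the 1 member called and 997 genes were called in all, against 1911 at 0.1 and 3074 with DESeq2 without the block. At 0.05, 5 endothelial genes were called lower, against 11 at 0.1. Same-numbered samples did not deviate together (r = 0.1559, 0.05451 and −0.1434 for replicates 1, 2 and 3), and without the replicate block 2405 genes were called. For samples of unlike number r was −0.2406 to 0.2219, highest for morphant replicate 3 with wild-type replicate 2. Over the 15 fits that left out samples, log2 fold changes were −1.3 to −0.93 for *gata1a*, −0.49 to −0.3 for *lmo2*, −0.51 to −0.17 for *tal1*, 0.32 to 0.62 for *fli1a* and −0.11 to 0.04 for *etv2*, whose sign turned in 6 of them. There, 1 to 4 members and 185 to 4144 genes were called, and the cause was not tested. Among these fits, those with the block for the same replicate number rest on the same pairs and are not separate tests. Each member had at least 3264 counts in every sample, and the spread between replicates was larger than the counting error.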
